A study of Mus musculus with 8 samples.

Results

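The IL-6 family members described here are 9 genes, chosen by name as cytokines and receptor chains that signal through gp130, out of 16341 genes in the count table. They comprise 5 receptor chains (Osmr, Il6ra, Il6st, Lifr and Il11ra1) and 4 ligands (Lif, Il11, Clcf1 and Il6), and each was matched to 1 Ensembl gene. RNA-seq libraries of 4T1-Sca1+ and of 4T1-Sca1- cells were compared, 4 of each. 4T1 is a mouse mammary carcinoma cell line, and SCA1 is the surface protein encoded by Ly6a. Both fractions were sorted from the unmodified parental line by magnetic columns after staining with a SCA1 antibody and received no treatment. A protocol note in the labels speaks instead of stained tumor and of a CD45-negative gate, so the groups are named here by the marker. The labels do not say whether the 4 libraries of a group came from separate sorts, and p-values then measure only the spread between these libraries, which may be technical.

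Cytokines of this family act through receptor complexes that share the signal-transducing chain gp130, encoded by Il6st. IL-6 and IL-11 first bind their own non-signaling chains (Il6ra and Il11ra1) and then engage gp130 homodimers, whereas LIF pairs gp130 with the LIF receptor (Lifr) and oncostatin M pairs it with the OSM receptor (Osmr). CLCF1 binds CNTFR with LIFR and gp130. The complexes activate JAK kinases and STAT3, and SOCS3 feeds back on gp130. In the mammary gland LIF and STAT3 are best known for their part in involution after weaning. The study examined OSM and IL-6 from tumor myeloid cells as inducers of the SCA1+ population. For the sorted fractions its pathway analysis already reported higher IL-6/JAK/STAT3 signaling in SCA1+ cells. It also reported more Osmr and Il6ra in SCA1+ cells, abundant Il6st in both and very low Osm and Il6. Here these genes are set beside further chains and ligands that the sorted cancer cells themselves may transcribe.

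The libraries held between 13561804 and 16968215 counts. Ly6a, which belongs to a family of similar genes, separated the groups as labeled: each 4T1-Sca1+ library had 145 to 193 normalized counts and each 4T1-Sca1- library at most 4.11. A normalized count is the raw count divided by the library's DESeq2 size factor. The listed epithelial markers other than Krt5, which had at most 2 counts in any library, were abundant in both groups but not all alike. Epcam was at 3128 ± 101 in 4T1-Sca1+ against 3222 ± 35.2 normalized counts in 4T1-Sca1- cells (SD, n = 4 libraries per group). Cdh1 was at 3264 ± 154 against 5301 ± 92.6. Ptprc, the gene of the leukocyte antigen CD45, had at most 4 counts in any library. In such bulk libraries, more cells carrying a transcript and more transcript per cell cannot be told apart.

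The start regions of 4 members are shown first because they belong to the genes on which the results turn: Lifr and Osmr, neighbors on chromosome 15 that both rose, and Lif and Il6, the ligands with the highest and the lowest level. Each line gives the 250 bases before an annotated start in RefSeq (GRCm38.p6), written 5′ to 3′ on the strand of the gene, with motif matches in capitals. The regions are chr15:7129322-7129571 (plus strand, first of the Lifr windows), chr15:6874314-6874563 (minus strand, Osmr), chr11:4257318-4257567 (plus strand, Lif) and chr5:30012864-30013113 (plus strand, Il6).
Lifr: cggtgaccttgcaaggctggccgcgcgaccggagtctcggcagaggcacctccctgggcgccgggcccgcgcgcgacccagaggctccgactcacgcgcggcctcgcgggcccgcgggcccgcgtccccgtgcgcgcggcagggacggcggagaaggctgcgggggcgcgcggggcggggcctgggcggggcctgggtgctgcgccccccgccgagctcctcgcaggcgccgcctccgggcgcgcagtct
Osmr: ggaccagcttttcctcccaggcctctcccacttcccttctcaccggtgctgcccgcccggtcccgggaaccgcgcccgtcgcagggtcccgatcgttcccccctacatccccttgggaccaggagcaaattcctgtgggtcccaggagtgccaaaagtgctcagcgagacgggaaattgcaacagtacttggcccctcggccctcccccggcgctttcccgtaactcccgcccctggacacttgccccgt
Lif: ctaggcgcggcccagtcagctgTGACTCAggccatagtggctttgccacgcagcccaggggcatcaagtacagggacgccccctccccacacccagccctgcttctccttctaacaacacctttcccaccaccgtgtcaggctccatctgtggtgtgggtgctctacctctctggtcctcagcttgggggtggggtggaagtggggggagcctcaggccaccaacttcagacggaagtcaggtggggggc
Il6: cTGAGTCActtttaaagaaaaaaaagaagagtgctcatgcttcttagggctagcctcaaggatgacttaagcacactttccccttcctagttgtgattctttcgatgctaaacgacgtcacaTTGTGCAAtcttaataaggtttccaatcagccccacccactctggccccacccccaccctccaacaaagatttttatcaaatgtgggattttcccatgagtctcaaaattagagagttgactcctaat

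The STAT-type motif TTCNNNGAA was found in none of the 11 windows of 300 bases (250 before the start and 50 after it) that RefSeq gave for 8 of the 9 members, and in 8.30% of 32851 windows of all genes. Clcf1 had no window. The AP-1-type motif TGANTCA was present in windows of 4 members, namely Lif, Il6, Il11 and Osmr, and in 7.81% of all windows. The matches lay 228 bases before the start in Lif and 249 bases before it in Il6, and the Osmr match lay within the 50 bases after the start and is not printed. The C/EBP-type motif TTGCNNAA was present in 1 of the 11 member windows, that of Il6, 128 bases before the start, and in 10.8% of all windows. Motifs were searched on both strands, and the last 2 were chosen after values of these data were seen. Of the 4 genes with the AP-1-type motif, Il11 and Osmr were higher in 4T1-Sca1+ cells and Lif was lower, and Il6 was not in the test across genes. A match is a description of the letters and was not tested, and its absence says only that these letters were not in the window.

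Lifr showed the largest difference of the members. Its normalized counts were 114, 123, 118 and 128 in the 4T1-Sca1+ libraries and 20.1, 18.5, 25.6 and 24.0 in the 4T1-Sca1- libraries. All values of the first group were far above the highest of the second. This was a log2 fold change of 2.47 ± 0.14 (standard error), or 5.54-fold with a 95% interval of 4.51 to 6.82 (quasi-likelihood test of edgeR, adjusted p = 1.22e-10). Lifr (ENSMUSG00000054263) spans 7090614 to 7197489 on chromosome 15 of GRCm38, plus strand.

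Osmr, the chain that gives oncostatin M its own receptor, was the other member whose estimate passed 2-fold. It had 292, 301, 289 and 284 normalized counts in the 4T1-Sca1+ libraries and 151, 134.5, 150.3 and 145 in the 4T1-Sca1- libraries. The values within each group lay close together and the groups were far apart. On the log2 scale Osmr rose by 1.02 ± 0.08 (edgeR, adjusted p = 5.05e-09). In the fit with all libraries, Lifr and Osmr (ENSMUSG00000022146, chromosome 15, 6813577 to 6874969, minus strand) were 2 of the 8 members tested that were called and at least 2-fold higher, where 5.22% of all 11717 genes tested were. Lifr stands in the SCA1-positive signature of the study, which was chosen on these libraries. Osmr stands in its list of shared upregulated genes. That list was chosen on these libraries together with a comparison of 4T1 cells cultured with Gr1+CD11b+ cells from tumor or from spleen. Neither list is thus independent evidence of the direction between these fractions.

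Il6ra, which encodes the chain that binds IL-6, also rose. Its normalized counts were 455, 487, 538 and 490 in the 4T1-Sca1+ libraries and 290, 304, 254 and 232 in the 4T1-Sca1- libraries. The groups did not overlap, although both were more spread than for Osmr. The rise was 0.87 ± 0.08 in log2 units (edgeR, adjusted p = 6.84e-08). Il6ra (ENSMUSG00000027947) spans 89864059 to 89913196 on chromosome 3, minus strand, and an antisense gene that was not counted overlaps its exons.

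Il6st moved the other way. The shared chain had 2538, 2546, 2465 and 2385 normalized counts in the 4T1-Sca1+ libraries and 3065, 3019, 2886 and 2995 in the 4T1-Sca1- libraries. Every 4T1-Sca1+ library was below every 4T1-Sca1- library, but the step was small next to those of Lifr, Osmr and Il6ra. Its log2 fold change of -0.26 ± 0.04 (edgeR, adjusted p = 6.31e-05) amounts to a level 1.19-fold higher in 4T1-Sca1- cells. Il6st (ENSMUSG00000021756) spans 112464070 to 112510086 on chromosome 13, plus strand.

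Il11ra1, the IL-11 binding chain, was not called. Its normalized counts were 41.1, 26.6, 55.9 and 58.6 in the 4T1-Sca1+ libraries and 34.4, 33.9, 34.5 and 33.1 in the 4T1-Sca1- libraries. The 4T1-Sca1- libraries were nearly level, whereas the 4T1-Sca1+ libraries lay on both sides of them. The fold change, 0.44 ± 0.21 in log2 units, had a 95% interval from -0.0043 to 0.89 (edgeR, adjusted p = 0.0797), so neither equality nor a rise of up to 1.85-fold was outside the interval. This call hung on 1 library, since without 4T1-Sca1+ replicate 2 edgeR put it at 0.62 in log2 units (adjusted p = 0.00631) and without replicate 4 at 0.29. Over the alternative fits that kept all libraries the log2 fold change lay between 0.33 and 0.48 and was never called. Il11ra1 (ENSMUSG00000073889, chromosome 4, 41699989 to 41769474, plus strand) shares exon sequence with Ccl27a on the opposite strand, a gene that was counted but fell below the filter, and the handling of strand is not given in the sources used here, so its value is uncertain. Cntfr, described later, lies just before it on the same chromosome.

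**Figure D1:**
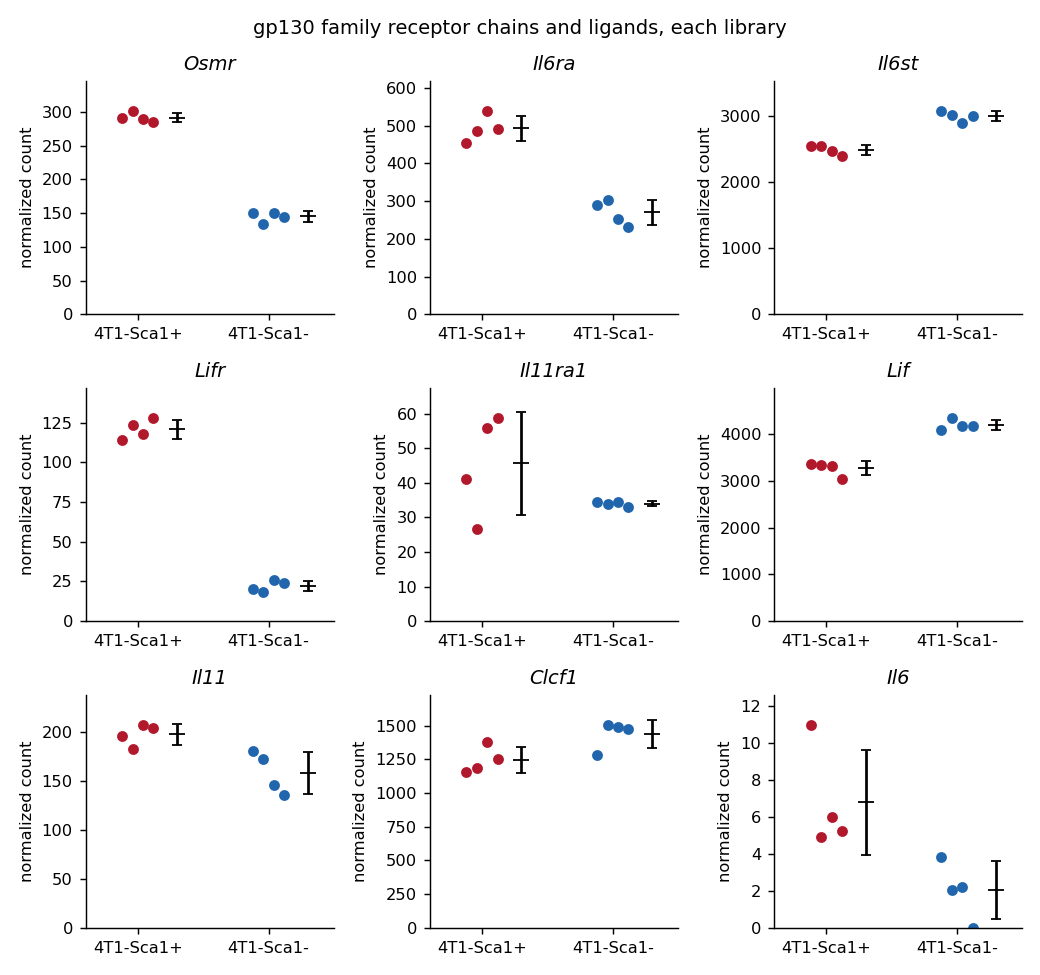
Normalized counts (y axis, from 0, a scale of its own in each panel) of the 9 members in the 4 libraries of 4T1-Sca1+ (red) and of 4T1-Sca1- cells (blue), with the mean and SD of each group in black. Lifr, Osmr and Il6ra sit higher in all 4T1-Sca1+ libraries, Il6st and Lif sit lower in all of them, and the groups of Il11ra1 and Clcf1 overlap.

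Among the ligands, Lif was by far the most abundant and was lower in 4T1-Sca1+ cells. It had 3358, 3338, 3320 and 3043 normalized counts in the 4T1-Sca1+ libraries and 4093, 4337, 4180 and 4164 in the 4T1-Sca1- libraries. The groups did not overlap, with replicate 4 of 4T1-Sca1+ the lowest of all 8 libraries. The log2 fold change was -0.35 ± 0.04 (edgeR, adjusted p = 3.14e-06), so Lif was 1.27-fold higher in 4T1-Sca1- cells, the fraction with less Lifr. Lif (ENSMUSG00000034394) spans 4257557 to 4272514 on chromosome 11, plus strand.

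Il11, which encodes a ligand best known for its roles in bone, decidua and fibrosis, was modestly higher in 4T1-Sca1+ cells. It had 197, 183, 207 and 205 normalized counts in these libraries and 180.5, 172, 146 and 136 in the 4T1-Sca1- libraries. The groups did not overlap, but the lowest value of the first group was close to the highest of the second. Il11 rose by 0.33 ± 0.10 on the log2 scale (edgeR, adjusted p = 0.00751). Il11 (ENSMUSG00000004371) spans 4772373 to 4782859 on chromosome 7, minus strand.

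Clcf1, a ligand of the CNTF receptor complex, was lower by a small margin. It had 1158, 1188, 1379 and 1251 normalized counts in the 4T1-Sca1+ libraries and 1282, 1504, 1486 and 1474 in the 4T1-Sca1- libraries. Replicate 3 of 4T1-Sca1+ exceeded replicate 1 of 4T1-Sca1-, so the groups overlapped. With a log2 fold change of -0.19 ± 0.06 (edgeR, adjusted p = 0.0113), Clcf1 passed the threshold of 0.05 but not one of 0.01. With GC-corrected offsets the log2 fold change of Clcf1 was larger, at -0.31. Clcf1 (ENSMUSG00000040663) spans 4214238 to 4223490 on chromosome 19, plus strand, and shares exon sequence with a gene that was not counted.

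Il6, the namesake of the family, was close to the floor of detection. It had 12, 5, 6 and 6 raw counts in the 4T1-Sca1+ libraries and 4, 2, 2 and 0 in the 4T1-Sca1- libraries, or 29 against 8 in all. Each 4T1-Sca1+ library had more Il6 counts than any 4T1-Sca1- library, at levels where a few reads set the value. Il6 (ENSMUSG00000025746, chromosome 5, 30013114 to 30019981, plus strand) did not enter the test across genes. A two-sided exact permutation test of its normalized counts (6.78 ± 2.82 against 2.02 ± 1.57, SD, n = 4) gave p = 0.0286, the smallest that 4 against 4 libraries allow, for a log2 ratio of the means of 1.74. Without the low-count filter edgeR estimated 1.64 (adjusted p = 0.0176) and DESeq2 1.71 (adjusted p = 0.0515), so the call depended on the tool. Osm, the other ligand the study examined, was counted 1 time in all, in a 4T1-Sca1- library, so that a difference could not be detected.

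In all, 7 of the 8 members tested were called, 4 of them higher (Osmr, Il6ra, Lifr and Il11) and 3 lower (Il6st, Lif and Clcf1). These numbers need to be read against the background, because 61.5% of all genes tested were called, 31.3% higher and 30.2% lower. For 6 of the 8 members the libraries of the groups did not overlap, 4 higher and 2 lower, against 54.7% of all genes tested, 26.8% higher and 27.9% lower. The median log2 fold change was 0.87 for the 5 receptor chains and -0.19 for the 3 ligands tested, beside 0.0074 for all genes tested. Of the chains, the 3 that rose each serve only some of the ligands, with Lifr serving more than 1. The one that fell is gp130, shared by all the complexes described above. The most abundant ligands also fell.

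Markers of other cell types moved with the fractions, and their part in these results was not tested. All 4 leukocyte markers tested, of 15 listed, were higher in 4T1-Sca1+ cells (Cd68, Csf1r, S100a8 and Cd74). Among all genes tested, 31.3% were higher and 30.2% lower. S100a8 had 33 to 50 raw counts in 4T1-Sca1+ and 3 to 10 in 4T1-Sca1- libraries, so it passed the low-count filter through the group where it was high. The summed leukocyte list ran from 413 to 477 against 228 to 271 normalized counts. Lyz2, Cd3e and S100a9 had at most 3 counts in any library. Both fibroblast markers tested, of 10 listed, were higher (Pdgfra and Col1a1, summed list 606 to 650 against 376 to 440), and the 1 endothelial marker tested of 9 listed, Tie1, was lower, with summed ranges of the list that overlapped (34.7 to 43.9 against 43.4 to 67.3), and lost its call without 4T1-Sca1- replicate 4. Of 9 epithelial markers tested, 2 were higher and 4 lower, with summed ranges that overlapped (59166 to 64779 against 60809 to 65654). The largest log2 fold changes among them were -0.69 ± 0.04 for Cdh1, -0.62 ± 0.06 for Cldn4 and 0.38 ± 0.04 for Krt18.

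**Figure D2:**
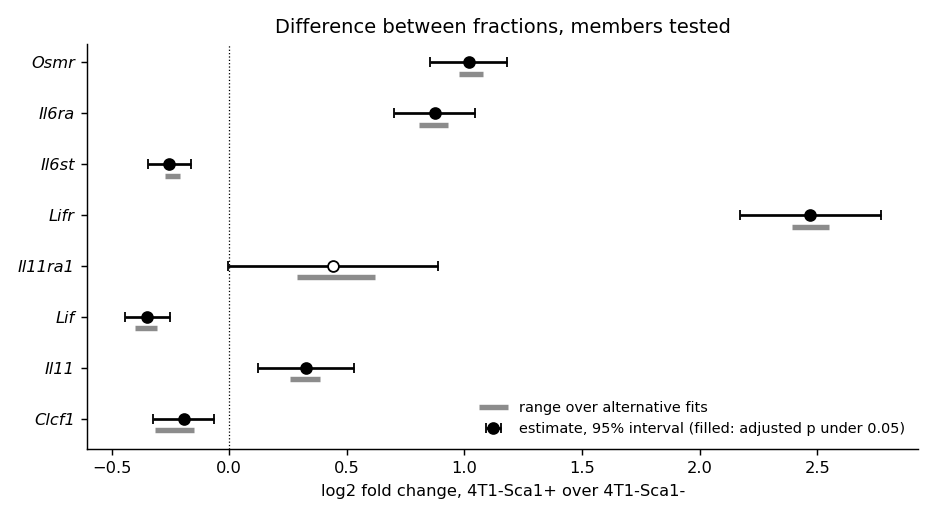
Log2 fold change of 4T1-Sca1+ over 4T1-Sca1- cells (x axis) for the 8 members tested, as edgeR estimates with 95% intervals in black and the range over the alternative fits as gray bars. Lifr stands at 2.47, Osmr and Il6ra near 1, and the interval of Il11ra1 (open symbol, not called) reaches 0.

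To compare levels between genes, normalized counts were divided by the length of the merged exons in kb. On this per-kb scale both fractions were ordered alike at the top: Lif at 751 in 4T1-Sca1+ and 964 in 4T1-Sca1- cells, then Clcf1 at 327 and 377, and Il6st at 224 and 270. Il11 followed at 95.2 and 76.2, then Il6ra at 57.0 and 31.2, and Osmr at 24.1 and 12.0. Neighbors in this order did not overlap in range within either group, and the ligands Lif and Clcf1 thus exceeded every receptor chain.

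The fractions differed at the low end. In 4T1-Sca1+ cells Lifr had 11.2 ± 0.55 per kb, and its range overlapped that of Il11ra1 at 10.2 ± 3.31. In 4T1-Sca1- cells Lifr had 2.04 ± 0.31 per kb, below Il11ra1 at 7.60 ± 0.14, with only Il6 lower at 0.834 ± 0.65. Lifr was thus the lowest of the receptor chains in 4T1-Sca1- cells. Lengths carry their own uncertainty: with the longest transcript in place of merged exons, Osmr came to 53.1 and 26.4 per kb, close to Il6ra at 57.0 and 31.2, and Il11ra1 moved above Lifr in 4T1-Sca1+ cells.

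**Figure D3:**
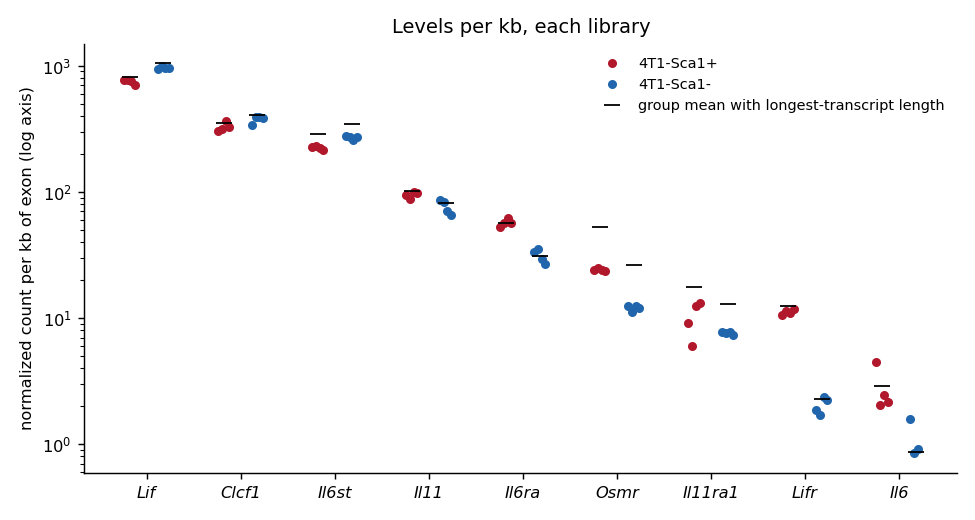
Normalized count per kb of merged exon (log axis) of the members in each 4T1-Sca1+ (red) and 4T1-Sca1- library (blue), with group means by the longest transcript as black dashes; the 4T1-Sca1- library with 0 counts of Il6 has no point. Lif and Clcf1 lie above all receptor chains in both groups, and Lifr shows the widest gap between the groups among the chains.

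Relative to gp130, the differences of Osmr, Il6ra and Lifr were larger than on their own, since these 3 rose and Il6st fell. Per 100 of Il6st on the per-kb scale, Lifr stood at 4.65, 5.01, 4.94 and 5.54 in the 4T1-Sca1+ libraries and at 0.690, 0.648, 0.933 and 0.844 in the 4T1-Sca1- libraries. The groups were separated by a wide gap, and the log2 difference of the ratio was 2.71, or 6.52-fold. Osmr per 100 of Il6st was 10.8 ± 0.17 against 4.47 ± 0.28 (SD, n = 4), a log2 difference of 1.27. Il6ra per 100 of Il6st was 25.5 ± 2.17 against 11.6 ± 1.28, a log2 difference of 1.14.

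These 3 ratios did not overlap between the groups, and each gave p = 0.0286 in a two-sided exact permutation test and 0.0381 after adjustment over the 4 ratios. That p is the smallest the design allows. Separation of these 3 ratios followed from the single genes, since the 3 chains were higher and Il6st lower without overlap. The p-values are therefore no further evidence beyond the tests of each gene. Il11ra1 per 100 of Il6st was 4.63 ± 1.60 against 2.86 ± 0.10, with overlapping groups and an exact permutation p of 0.143 before and after adjustment. Ratios of this kind do not depend on how libraries were scaled, and they show unequal change of a pair of genes rather than which of them changed. The lengths used alter the level of each ratio but not its log2 difference between the groups.

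**Figure D4:**
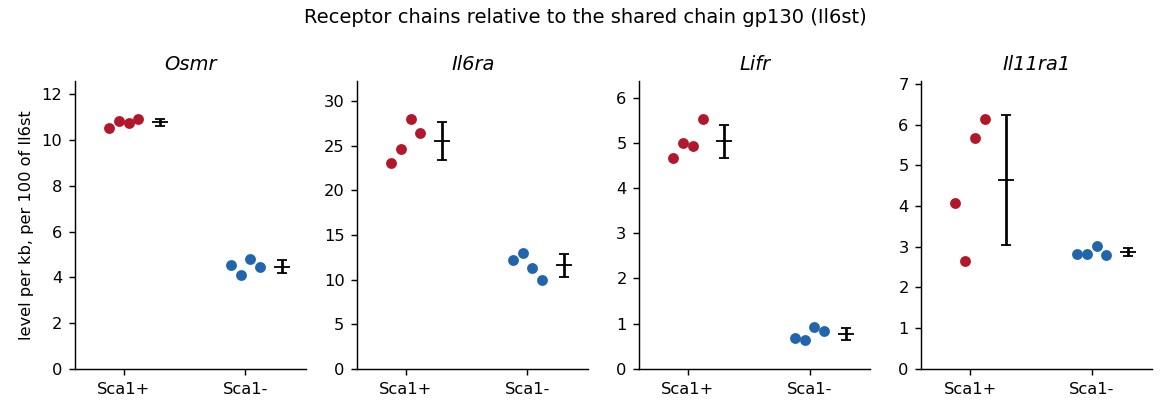
Level of each receptor chain other than Il6st per kb, per 100 of Il6st per kb (y axis, from 0), in the 4T1-Sca1+ (red) and 4T1-Sca1- libraries (blue), with mean and SD in black. Osmr, Il6ra and Lifr do not overlap between the groups, and Il11ra1 does.

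The make-up of the family also shifted. The 4 partner chains other than Il6st summed to 102 ± 5.97 per kb in 4T1-Sca1+ and 52.9 ± 3.45 in 4T1-Sca1- cells. Lifr made up 11.0% ± 0.70 of that sum against 3.90% ± 0.80, whereas Osmr held 23.6% ± 1.74 against 22.8% ± 2.08 and Il6ra 55.6% ± 1.62 against 58.9% ± 3.61. Il11ra1 held 9.86% ± 2.82 against 14.4% ± 0.80. The shares of Lifr and Il11ra1 did not overlap between the fractions, Lifr's being higher and Il11ra1's lower in 4T1-Sca1+ cells, and those of Osmr and Il6ra did overlap. These shares rest on the merged exon lengths and are given as descriptions, with no test. With the longest transcript as length, Osmr came to 53.1 and 26.4 per kb, close to Il6ra at 57.0 and 31.2, so its share would be larger.

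The 4 ligands summed to 1175 ± 40.7 per kb in 4T1-Sca1+ and 1418 ± 45.3 in 4T1-Sca1- cells, and Lif held 63.9% ± 2.07 and 68.0% ± 0.63 of it. Il11 took 8.10% ± 0.49 against 5.38% ± 0.77, with no overlap. Because Lif fell and Lifr rose, the level of Lif per Lifr on the per-kb scale was 66.9 ± 5.90 against 469 ± 76.8. Lif transcript exceeded Lifr transcript in both fractions, 7.01 times more so in 4T1-Sca1- cells. Il11 per Il11ra1 was 10.03 ± 3.25 against 9.91 ± 1.25, and Il6 per Il6ra was 0.0532 ± 0.024 against 0.0326 ± 0.018, both with overlapping groups. These pairs were picked after the values of the members were seen and were not tested.

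The rest of the family was taken from lists of further gp130 family ligands and receptors. Cntfr, the CNTF binding chain with which CLCF1 signals, had the largest change of them and ran opposite to Lifr. It had 11.0, 13.8, 11.0 and 14.0 normalized counts in the 4T1-Sca1+ libraries and 54.4, 62.6, 42.3 and 58.2 in the 4T1-Sca1- libraries. Every 4T1-Sca1- library was far above the highest 4T1-Sca1+ library, and the log2 fold change was -2.11 ± 0.20 (edgeR, adjusted p = 9.36e-08). On the per-kb scale Cntfr per Lifr was 0.411 ± 0.036 against 9.72 ± 2.71, so the more abundant of these 2 chains was Lifr in the first fraction and Cntfr in the second.

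Ctf1, which encodes cardiotrophin-1, a further ligand of LIFR, rose by 0.66 ± 0.12 on the log2 scale (165 against 106 normalized counts, adjusted p 0.000103, edgeR). Il27ra, the IL-27 binding chain that pairs with gp130, rose by 1.18 ± 0.19 (52.0 against 22.8 normalized counts, adjusted p 4.20e-05, edgeR). Cntf was at 12.8 ± 2.57 against 13.0 ± 2.02 normalized counts, a log2 fold change of 0.01 ± 0.27 whose sign changed between fits. Il27, Ebi3 and Il12rb2 had at most 5 counts in any library.

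Downstream of the receptors, the kinases did not move alike. Jak2 had 2726, 2790, 2540 and 2597 normalized counts in the 4T1-Sca1+ libraries and 1568, 1447, 1433 and 1454 in the 4T1-Sca1- libraries. The groups were far apart, a rise of 0.86 ± 0.05 on the log2 scale (edgeR, adjusted p = 9.59e-11). Jak1, the kinase most tied to gp130, was at 2720 ± 124 against 2824 ± 88.2 normalized counts, and its log2 fold change of -0.04 ± 0.05 had a 95% interval from -0.14 to 0.057 and changed sign under other scalings. Tyk2 rose by 0.28 ± 0.07 and Stat3 by 0.14 ± 0.05 on the log2 scale, with adjusted p of 0.00171 and 0.0164 (edgeR). With GC-corrected offsets and the replicate block Tyk2 stood at 0.13. Stat3 overlapped between the groups and lost its call without 4T1-Sca1- replicate 1 (log2 fold change 0.11) or replicate 3 (0.13).

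Over the 11 kinases, STATs and adaptors tested, 7 were higher and 3 lower, with a median log2 fold change of 0.17. The shares among all genes tested were 31.3% higher and 30.2% lower. The adaptor Shc1 rose by 0.74 ± 0.06 and Gab1 by 0.36 ± 0.11 on the log2 scale, the latter at an adjusted p of 0.0121 that became 0.0559 without 4T1-Sca1- replicate 1. The phosphatase SHP2, encoded by Ptpn11 and docked on gp130, was lower, at -0.34 ± 0.04 on the log2 scale. Ptpn11 was chosen after its values were seen. Both directions therefore occurred among the genes that act directly at the receptor.

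Among the feedback regulators, 7 of 10 tested were higher and 2 lower, beside 31.3% and 30.2% of all genes tested, and their median log2 fold change was 0.28. Socs3, the main inhibitor of gp130, had 1049, 961, 1308 and 1225 normalized counts in the 4T1-Sca1+ libraries and 981, 976, 768 and 751 in the 4T1-Sca1- libraries. The groups overlapped, and Socs3 rose by 0.40 ± 0.10 on the log2 scale (edgeR, adjusted p = 0.00165), or by 0.20 with GC-corrected offsets. The largest changes of the list were in Socs1 (0.85 ± 0.16), the phosphatase gene Ptpn6 (0.63 ± 0.06) and Cish (0.59 ± 0.13), all higher. Ptpn2 and Nfkbiz were the 2 lower ones, with log2 fold changes of -0.42 and -0.40, and were named after their values were seen.

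Of 6 tested genes that shed or sort the receptors, 1 was higher and 1 lower, with a median log2 fold change of 0.043, where 61.5% of all genes tested were called in either direction. Adam17, whose product can release the IL-6 receptor from the surface, had a log2 fold change of 0.07 (95% interval -0.034 to 0.18) and was called only with GC-corrected offsets, at 0.14. Erap1 was lower by -0.42 ± 0.08, and Sort1, a sorting receptor, rose by 1.48 ± 0.20 from a low level (73.3 against 26.3 normalized counts). Adam17 and Sort1 were named after their values were seen.

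Genes known as STAT3 targets were higher more often than lower, with 14 of 23 tested higher, 5 lower and a median log2 fold change of 0.39, beside 31.3% higher and 30.2% lower among all genes tested. Among those with a mean normalized count of 50 or more, the largest changes were in C1s1 (2.28 ± 0.14), which encodes a complement protease, Lcn2 (2.10 ± 0.06), which encodes the iron-trapping protein lipocalin-2, and Cebpb (1.13 ± 0.09), a transcription factor gene of the acute-phase response. With GC-corrected offsets Cebpb stood at 0.67. Lcn2 was the most abundant of these 3, at 13412 ± 916 against 3162 ± 217 normalized counts. At a lower level, the acute-phase gene Saa3, among the 14, rose by 2.39 ± 0.29 (58.2 against 11.0 normalized counts). Saa3 had 46 to 72 raw counts in 4T1-Sca1+ and 2 to 18 in 4T1-Sca1- libraries. It thus passed the low-count filter through the group where it was high. The list was not uniform, since Myc was lower by -0.28 ± 0.04 and Irf1 by -0.39 ± 0.05. Saa3, Myc and Irf1 were named after their values were seen. Most targets on the list also respond to other factors.

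Receptors of other cytokine families served for comparison. Of 14 tested, 6 were higher, 3 lower and 5 not called, with a median log2 fold change of -0.0039, against 61.5% called among all genes tested. Il12rb1, which encodes a shared chain of the IL-12 and IL-23 receptors, rose by 2.14 ± 0.10 and Ifnlr1, the interferon lambda receptor, by 1.08 ± 0.19, whereas Il15ra was lower by -0.69 ± 0.13. A change of that order in a receptor gene was thus not limited to Lifr. Over all 54 further pathway genes tested, listed once each, 31 were higher and 12 lower, beside the 31.3% higher and 30.2% lower of all genes.

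**Figure D5:**
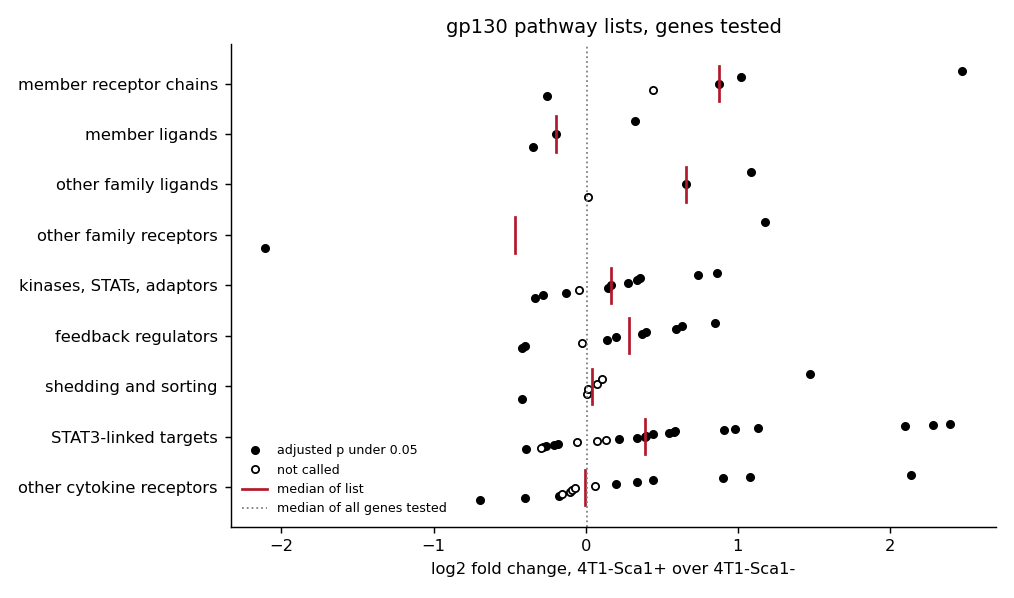
Log2 fold change of 4T1-Sca1+ over 4T1-Sca1- cells (x axis) for each gene tested in the member groups and the further pathway lists (rows), filled where the adjusted p was under 0.05, with list medians in red and the median of all genes tested as a dotted line. Lifr reaches 2.47 among the members, Il12rb1 reaches 2.14 among the other cytokine receptors, whose median is near 0, and Cntfr lies at the far left at -2.11.

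Lifr and Osmr are neighbors on chromosome 15, in opposite orientation and 216 kb apart, with 1 annotated non-coding gene between them that was not counted. Within 1 Mb on either side 7 further genes were counted, of which 5 were tested. Cplane1 was higher by 0.22 ± 0.05 on the log2 scale and Wdr70 lower by -0.24 ± 0.05, and the other 3 were not called, namely Dab2 (0.03 ± 0.05), Rictor (0.07 ± 0.06) and Nup155 (-0.07 ± 0.05). Rictor, which lies nearest to Osmr, was called only with GC-corrected offsets, at 0.17. The largest difference among the 5 tested neighbors was the 1.18-fold of Wdr70, against 5.54-fold for Lifr and 2.02-fold for Osmr.

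Finally, the genes with the profile most like each member over the 8 libraries were listed by the root mean square distance of centered log2 CPM. For Lifr these were Mgst1 (0.139) and Blvrb (0.140), both genes of detoxification, and for Osmr they were Cbr1 (0.0434) and Abcb6 (0.0505). For Il6ra they were Dll4 (0.0594) and Mtss1l (0.0620), for Il6st Vcl (0.0210) and Arf1 (0.0224), and for Lif Epha2 (0.0191) and Nol9 (0.0210). The values are distances in log2 units, to be set against the distance to a typical gene, which was 1.21 for Lifr and 0.526 for Osmr as the median over the genes compared. The nearest genes were Helb and Atg4d for Il11 and Cnn2 and Ppm1j for Clcf1. Il11ra1 had no close match, with its nearest gene, Hps6, at 0.184 against a median of 0.383, and Ocel1 next. By this measure a gene with a like difference between the groups is close, and nothing is implied about shared function.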

How the data were processed

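Total RNA from both fractions was made into TruSeq libraries and sequenced on an Illumina NextSeq, per the labels. The authors deposited raw counts per Ensembl gene (16341 genes, 8 libraries). The submitters' processing notes name cutadapt 1.16, STAR 2.5.3a and the builds GRCm38 and mm10, whereas the counting tool, annotation and use of strand are not given in the sources used here. A second deposited table holds these counts divided by a size factor per library and was not used.

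Symbols, positions and exon lengths came from GENCODE M21 on GRCm38, matched by Ensembl ID (16202 genes matched, 139 not). Counts were tested with edgeR 4.0.16 in R 4.3.3 (TMM scaling, filterByExpr, glmQLFit and glmQLFTest, two-sided, no covariates), with Benjamini-Hochberg adjustment over 11717 genes and a threshold of 0.05. Standard errors are the absolute log2 fold change divided by the square root of F. Ratios to Il6st used counts plus 0.5 and exact permutation tests (scipy 1.17.1).

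Alternatives were DESeq2 1.42.0 and its size factors, limma-voom (3.58.1), library totals, GC-corrected offsets, no filter or at least 10 counts in every library, a threshold of 0.01, the replicate number as a block, the longest transcript as length, no added count, and leaving out each library. The members and lists were chosen with earlier results of these data known. Named genes were all members, the further family ligands and receptors, Jak1, Jak2, Tyk2, Stat3 and Socs3, up to 3 called genes per list with the largest change (mean normalized count 50 or more), genes within 1 Mb of Osmr and Lifr, and the 2 genes most like each member (mean normalized count 100 or more). Those named outside this rule are said to be so in the text, as are the markers. Floors and low counts cover counting error only, since no molecular identifiers mark PCR copies. Protein sequences were not used here, and some items of the lists are not reported here.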

Additional observations from a re-analysis of the deposited data

Results flagged for a closer look

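In 6 of 76 sets of 4 libraries checked, 1 library lay far from the other 3 by Dixon's criterion, where chance alone gives about 3.8. Lif had 3043 normalized counts in 4T1-Sca1+ replicate 4 against 3320 to 3358 in the others, and all of these were below the 4T1-Sca1- libraries. Clcf1 had 1282 in 4T1-Sca1- replicate 1 against 1474 to 1504. Its groups overlapped because this library lay below 4T1-Sca1+ replicate 3, at 1379. Il11ra1 per 100 of Il6st was 3.02 in 4T1-Sca1- replicate 3 against 2.79 to 2.83, a small step in a tight group. Among the pathway genes, Jak2 had 1568 normalized counts in 4T1-Sca1- replicate 1 against 1433 to 1454, and Ifnlr1 had 41.1 in 4T1-Sca1- replicate 2 against 29.6 to 31.2. The leukocyte marker Cd68 had 208 in 4T1-Sca1+ replicate 3 against 243 to 249. No single library accounted for more than 2 of these values.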

How the results depend on the processing

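The 8 members tested kept their direction in all 17 alternative fits, and 7 of them kept their side of the threshold in each. The exception was Il11ra1 without 4T1-Sca1+ replicate 2. Members called higher numbered 4 or 5 and members called lower 2 or 3. Further pathway genes called higher ran from 27 to 33 and lower from 10 to 15. Over all genes, calls ran from 3019 to 4118 higher and from 2829 to 3869 lower, and no scaling moved the median log2 fold change beyond 0.050.

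The ratios to Il6st stayed near their values, but with 3 against 4 libraries an exact test cannot go below p = 0.0571, so none could pass. Leaving out each library, the log2 difference ran from 1.23 to 1.31 for Osmr, 1.07 to 1.20 for Il6ra and 2.62 to 2.80 for Lifr. With the replicate number as a block, 4 pairs allow no p below 0.125 (0.167 after adjustment), and the differences were 1.27, 1.14 and 2.71. Libraries with the same replicate number showed little shared deviation (correlations of deviations from -0.15 to 0.096). This cannot tell whether they were prepared as pairs. The block left 4 members higher and 3 lower, with 3605 genes higher and 3452 lower in all. For Il6 the log2 ratio ran from 1.33 to 2.25 across the same exclusions, without reaching significance for the same reason.

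Reversals were limited to uncalled genes near 0. Cntf was -0.0080 with DESeq2, -0.0044 with limma-voom, -0.00044 without a filter and -0.0045 with the block, and ran from -0.15 to 0.12 across left-out libraries. Dab2 ran from -0.018 to 0.046 across these. Jak1 was 0.0029 with GC-corrected offsets, 0.0017 with library totals and 0.0029 with block and GC offsets, and Nup155 was 0.028 with GC offsets, block or not. The cause was not tested. Depth limits Il6, Osm, Il27, Ebi3 and Il12rb2.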
